A study of Mus musculus with 12 samples.

Results

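The subunits of the oxidative phosphorylation system were followed by RNA sequencing in the tibialis anterior of mice, a shin muscle made mostly of fast fibres. Members were taken by gene name: Nduf genes other than the Ndufaf assembly factors, the Sdh subunits of complex II, Uqcr genes, Cox4 to Cox8 genes, Atp5 genes, and the mt-Nd, mt-Co, mt-Cytb and mt-Atp genes, without pseudogenes. This gave 94 genes of the 13865 listed in the deposited tables, of which 81 are nuclear-encoded and 13 are encoded by the mitochondrial genome. Complex I held 45 members (38 nuclear, 7 mitochondrial), complex II 4 nuclear members, complex III 9 (8 nuclear, 1 mitochondrial), complex IV 18 (15 nuclear, 3 mitochondrial) and complex V 18 (16 nuclear, 2 mitochondrial). All 94 passed the filter on low values in each comparison.

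The 12 samples formed 3 groups of 4, and every group is labelled C57BL/6J. The Sham group was free of tumours and ate standard chow. The KPC group ate the same chow and bore tumours from KPC cells, pancreatic cancer cells of mouse origin that were injected into the exposed pancreas. The KPC_UA group bore such tumours and ate chow supplemented with ursolic acid, a triterpenoid of fruit peel. The labels do not say whether the samples of a group are different animals, and the p-values then measure the spread between samples, which may be technical. Sex and age are not given in the labels used here.

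Complexes I to IV pass electrons from NADH and succinate to oxygen, and complexes I, III and IV pump protons as they do so. Complex V uses the proton gradient to make ATP. Complex II is built from nuclear-encoded proteins alone, whereas the other complexes combine nuclear-encoded subunits, made in the cytosol and imported, with a core encoded by mitochondrial DNA. Mitochondrial genes are transcribed from opposite strands as long precursors and are cut apart largely at the tRNAs that lie between them. Fast muscle carries fewer mitochondria than slow muscle, and some complex IV subunits exist as muscle and widely expressed isoforms.

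A pair of sequence sets bears on how the values are read, and the first concerns the single member that passed the test below. The mitochondrial gene mt-Nd3, a complex I core subunit, lies on the plus strand at chrM:9459-9806 (GRCm38, GENCODE M21) between the tRNA genes mt-Tg and mt-Tr. An annotated nuclear pseudogene, Gm28438, lies on the minus strand at chr1:24612775-24613119 and matches it over 345 bases with 1 difference, T3C (mt-Nd3 base, position from 1 at the 5′ end of the transcript, pseudogene base). The first 60 bases of both transcripts follow, with the differing base in capitals.
mt-Nd3: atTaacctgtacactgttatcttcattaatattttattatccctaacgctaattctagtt
Gm28438: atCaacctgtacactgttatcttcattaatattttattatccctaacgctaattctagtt

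The other set is the promoters of the nuclear members, shown because these members varied together. RefSeq promoter windows (GRCm38.p6, 250 bases before to 50 bases after the start) were matched by symbol for 65 of the 81 nuclear members. The motif of NRF-1, read as GCGC and TGCGC separated by any single base, was present on either strand for 17 of 65 members (26.2%), against 5.19% of the 27025 genes in the promoter table. AANATGGCG, a YY1 motif, was present for 10 members (15.4%) against 2.76%, CCGGAAGT, an ETS motif read by GABP, for 5 (7.69%) against 4.31%, and TNAAGGTCA, a motif of the estrogen-related receptors, for 3 (4.62%) against 1.43%. At least one motif was present for 30 members and none for 35. These matches are descriptions of letters and not binding sites. The 27025 genes are more than the 13865 listed for this muscle, so the shares set beside the members include genes not listed here. A link between the motifs and the shared variation was not tested. The 3 members with the receptor motif, Atp5g3, Ndufb4 and Sdhd, also held the NRF-1 letters. The windows of Sdhd (chr9:50603800-50604099, minus strand), Cox8a (chr19:7217567-7217866, minus strand) and Atp5b (chr10:128083057-128083356, plus strand) show the motifs in capitals, 5′ to 3′. All marked stretches are the reverse complement of the motif as spelled. Sdhd holds the NRF-1 letters and then the receptor motif, Cox8a holds CCGGAAGT at both marked places, and Atp5b holds the YY1 letters.
Sdhd: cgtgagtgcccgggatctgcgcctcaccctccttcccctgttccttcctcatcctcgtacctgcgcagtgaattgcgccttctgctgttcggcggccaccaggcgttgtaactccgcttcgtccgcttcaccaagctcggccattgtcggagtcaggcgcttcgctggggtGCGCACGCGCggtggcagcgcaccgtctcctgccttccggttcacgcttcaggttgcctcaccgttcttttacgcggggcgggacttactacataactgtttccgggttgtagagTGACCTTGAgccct
Cox8a: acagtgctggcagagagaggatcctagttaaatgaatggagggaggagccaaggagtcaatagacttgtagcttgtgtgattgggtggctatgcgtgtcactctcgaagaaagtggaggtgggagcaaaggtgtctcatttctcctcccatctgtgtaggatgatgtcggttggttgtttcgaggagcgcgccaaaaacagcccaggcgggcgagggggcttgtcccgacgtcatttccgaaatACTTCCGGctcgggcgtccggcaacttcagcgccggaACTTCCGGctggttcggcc
Atp5b: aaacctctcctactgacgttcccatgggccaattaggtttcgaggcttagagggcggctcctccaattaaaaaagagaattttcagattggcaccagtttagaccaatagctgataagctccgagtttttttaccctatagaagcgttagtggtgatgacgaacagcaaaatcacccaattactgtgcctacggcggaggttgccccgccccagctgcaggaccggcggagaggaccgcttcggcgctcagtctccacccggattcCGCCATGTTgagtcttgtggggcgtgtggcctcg

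Libraries held 22.3 to 32.0 M reads in listed genes. The 9 markers of fast fibres summed to between 3712262 and 4769867 normalised values over all 12 libraries, and their ranges overlapped between all groups. The 7 markers of slow or oxidative fibres summed to between 9201 and 40131 in Sham, 4598 and 17657 in KPC, and 12659 and 41175 in KPC_UA libraries, and these ranges overlapped. The brown adipocyte markers Ucp1, Cidea and Elovl3 were not listed in all 3 tables. The 3 tendon markers listed, of 4, summed to between 598 and 1283 in Sham, 122 and 531 in KPC, and 133 and 538 in KPC_UA libraries, so both tumour-bearing groups lay below Sham. The 4 white adipocyte markers listed, of 5, summed to between 226 and 586 in Sham, 83.0 and 123 in KPC, and 98.3 and 418 in KPC_UA libraries, and KPC lay below Sham. The 6 erythroid markers summed to between 749 and 3445 in Sham, 2789 and 10659 in KPC, and 2486 and 15997 in KPC_UA libraries, with overlap. The part of these other cells in the values below was not tested, and in whole muscle fewer cells of a type and less RNA per cell cannot be told apart.

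Levels are given on a scale set over all 12 libraries from the recovered reads, since each deposited table was scaled on its own, and every test was made within its own table. Per kilobase of transcript, the 7 highest of the 94 members in Sham muscle were mitochondrial-encoded. mt-Co1, the catalytic core of complex IV, led with 755398 ± 146186 normalised values per kilobase (SD, n = 4), followed by mt-Cytb of complex III with 468759 ± 59453. The highest nuclear members were the catalytic subunits of complex V, Atp5b with 40869.8 ± 6488 and Atp5a1 with 29015 ± 4162. Cox4i1, a structural subunit of complex IV, followed with 26494 ± 6209, and it differed from Atp5a1 by less than the spread of either. Median levels per kilobase in Sham were 4381 for nuclear complex I, 7393 for complex II, 8150.0 for nuclear complex III, 9847 for nuclear complex IV and 9352 for nuclear complex V members. The lowest member was Cox4i2, an isoform of Cox4i1, with 39.6 ± 24.2.

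Nuclear-encoded members took 2.166 to 3.37% of reads in Sham, 1.62 to 3.02% in KPC and 2.24 to 3.41% in KPC_UA libraries. Mitochondrial-encoded members took more, 9.76 to 14.2% in Sham, 9.19 to 14.03% in KPC and 10.7 to 13.9% in KPC_UA libraries. For both genomes the group ranges overlapped. Nearly all of the mitochondrial share came from 7 of the 13 members. In Sham 1 these 7 took 10.64% of reads, against 10.65% for all 13. The few reads of the other 6 are described below.

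The nuclear members varied between libraries as a block. The Pearson correlation of each with the median of the other nuclear members over the 12 libraries had a median of 0.94 and exceeded 0.8 for 68 of 81. This is a description, since all points share the libraries and their scaling. The same correlation was not taken for other genes, so it does not show a trait particular to these members. The members with the lowest values were Atp5s, a gene named as a complex V coupling factor (-0.30), Sdha, the catalytic flavoprotein of complex II (-0.01), Cox8a (0.27) and Ndufs1, the largest core subunit of complex I (0.29). For the 13 mitochondrial members the same correlation with the nuclear median had a median of 0.08 and ran from -0.71 for mt-Nd5 to 0.76 for mt-Nd4. The levels of the 2 genomes therefore did not follow one pattern over the libraries.

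**Figure D1:**
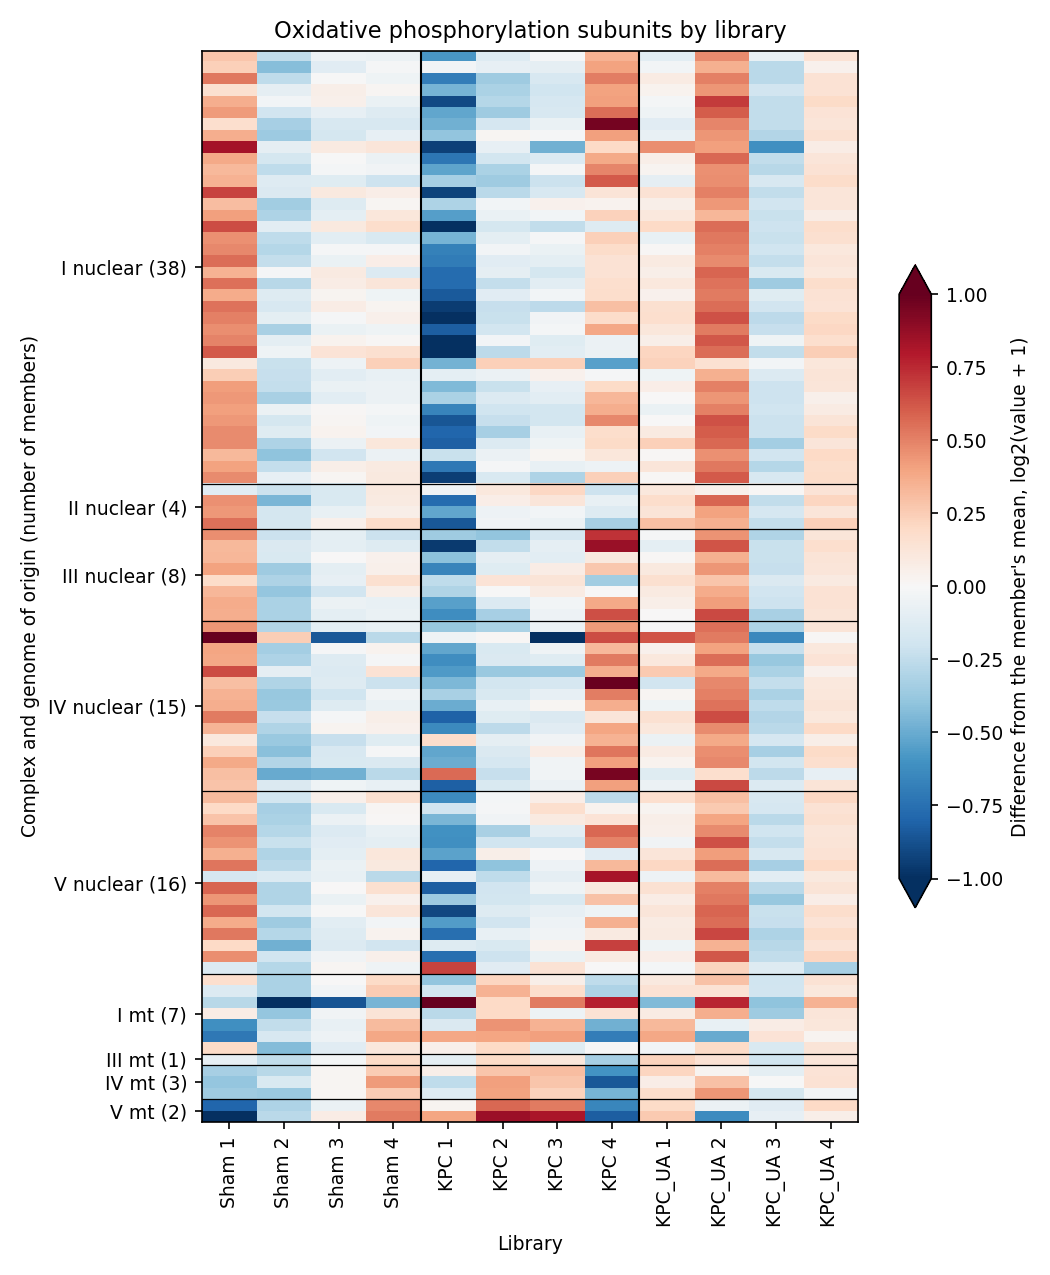
Difference of each member from its own mean over the 12 libraries, on the log2(value + 1) scale (colour, cut at 1 in either direction), with members in rows by complex and genome of origin and libraries in columns by group. Nuclear rows are high together in Sham 1, KPC 4 and KPC_UA 2 and low together in KPC 1, and the mitochondrial rows do not share this pattern.

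The median difference of the nuclear members from their own means was 0.39, -0.25, -0.07 and -0.01 (log2) in Sham replicates 1 to 4. It was -0.57, -0.15, -0.06 and 0.30 in the KPC replicates, and 0.06, 0.50, -0.23 and 0.13 in the KPC_UA replicates. The library with the highest nuclear level in each group was Sham 1, KPC 4 and KPC_UA 2, and KPC 1 was the lowest of the 12. The same 3 libraries were the lowest of their groups in the level of long transcripts relative to short ones. That measure took the log2 difference of each gene from its own mean over the 12 libraries. It was the median for 2729 genes of at least 5000 bases minus that for 978 genes of at most 1000 bases, none of them members. The measure was -0.51 in Sham 1, -0.62 in KPC 4 and -0.57 in KPC_UA 2, and it lay between -0.13 and 0.36 in the other 9. Most nuclear members themselves have transcripts of at most 1000 bases. The part of the measure in the results was not tested beyond leaving these libraries out and removing a trend on transcript length.

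**Figure D2:**
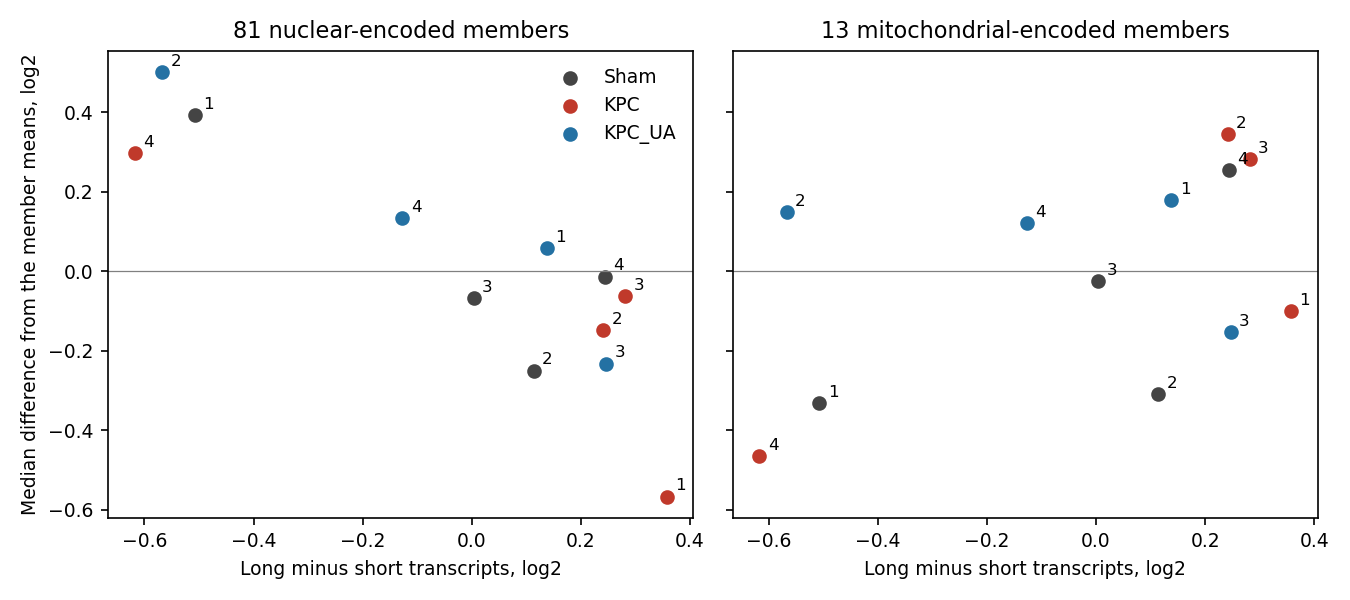
Median log2 difference of the nuclear members (left) and mitochondrial members (right) from their own means, with each library as a point labelled by its replicate number. The horizontal axis is the same median difference for long transcripts minus that for short ones (log2). The libraries with values from -0.62 to -0.51 on the horizontal axis hold the 3 highest nuclear values, 0.30 to 0.50, while KPC 1, at 0.36, holds the lowest, -0.57.

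The comparison of KPC with Sham asks how a pancreatic tumour moved these transcripts in muscle. By limma with Benjamini-Hochberg adjustment over 13542 genes, 1 of 94 members passed an adjusted p of 0.05, and it was mt-Nd3. Over all genes 1.18% passed by limma and 1.39% by edgeR, which called the same member, and 11.7% passed by DESeq2, which called it too. At an unadjusted p under 0.05 there were 3 members, mt-Nd3, Ndufb10 and Ndufc2, against 24.5% of all genes, and the groups did not overlap for the same 3, against 19.1% of all genes. The count passing the test was near the background share, and the counts at both looser criteria were below it. Members had standard errors of 0.16 to 0.52 on the log2 scale, with a median of 0.23, against 0.27 over all genes.

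mt-Nd3 rose in KPC muscle. Its normalised value was 2305, 1159, 1538 and 2021 in the Sham replicates, 6001, 3210.4, 4009 and 4784 in the KPC replicates, and 2054, 4734, 2118 and 3559.9 in the KPC_UA replicates. Every KPC library was above every Sham library, and the KPC_UA libraries overlapped with both groups. The log2 fold change against Sham was 1.37 (SE 0.26, limma adjusted p = 0.0433), and the authors' deposited table gave 1.35 with an adjusted p of 0.00019. DESeq2 on the recovered reads gave the same 1.35 with a DESeq2 adjusted p of 0.00019. The deposited values and the DESeq2 call are therefore not separate results, and DESeq2 called 11.7% of all genes. edgeR's quasi-likelihood test gave an adjusted p of 0.046. The limma call was lost when any one of the 4 Sham libraries, KPC 3 or KPC 4 was left out, with adjusted p from 0.0857 to 0.153 and log2 fold changes from 1.18 to 1.51, and in each of these fits 0 of all genes passed. It was also lost with a minimum mean of 50 (adjusted p = 0.0512) and with limma without trend and robust estimation (adjusted p = 0.0566). Without Sham 1 and KPC 4 together, the log2 fold change was 1.47 with an adjusted p of 0.302.

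The reads of mt-Nd3 are uncertain. It had 1351 to 6250 reads per library, and 5 neighbours, mt-Co2, mt-Atp8, mt-Atp6, mt-Co3 and mt-Nd4l, had 76 to 940, whereas the other 7 mitochondrial members had 70527 to 1474891. For 5 of these 6 genes, all but mt-Atp8, at least 98% of bases over nearly the whole transcript matched an annotated nuclear pseudogene on chromosome 1. The matches were Gm28661 for mt-Co2, Gm10925 for mt-Atp6, Gm28437 for mt-Co3, Gm28438 for mt-Nd3 and Gm10222 for mt-Nd4l. These copies themselves were listed with 26 to 438 reads per library. mt-Nd4 matched a copy, Gm28439, over 63.6% of its transcript. The sources used here do not give how reads that match several sites were counted, so values of these genes count an unknown share of their transcripts. Its part in the difference between groups was not tested.

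**Figure D3:**
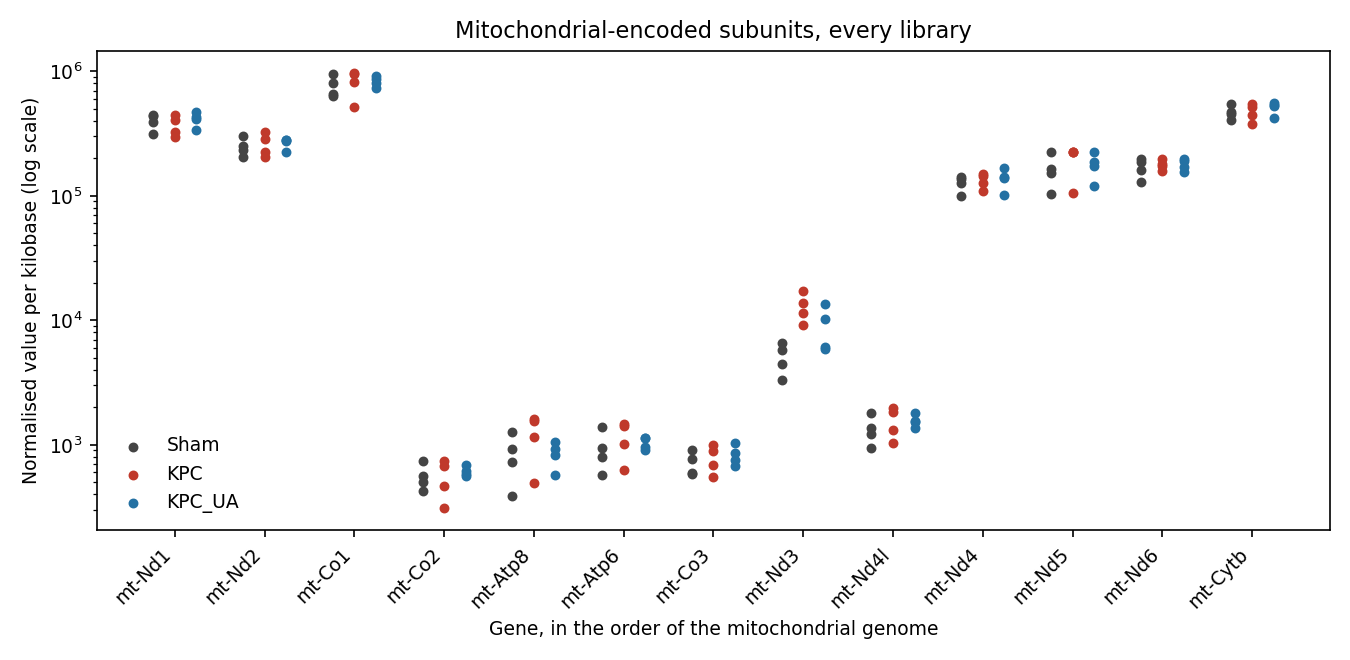
Normalised value per kilobase (log axis) of the 13 mitochondrial-encoded members in the order of the mitochondrial genome, with each point a library, grey for Sham, red for KPC and blue for KPC_UA. The 5 genes mt-Co2, mt-Atp8, mt-Atp6, mt-Co3 and mt-Nd4l lie far below the 7 members with many reads and mt-Nd3 lies between, where its KPC points all exceed its Sham points.

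No other mitochondrial member passed the test in KPC against Sham. For the 13 members the median log2 fold change was 0.09, with 11 positive, against 0.01 over all genes. For the 7 members with many reads it was 0.06, with 6 positive. mt-Co1 was 1167090.1 ± 225858 in Sham, 1264295 ± 324384 in KPC and 1286573 ± 120685 in KPC_UA libraries (normalised value, SD, n = 4), and these ranges overlapped. mt-Cytb had a log2 fold change of 0.00 (SE 0.17), and mt-Nd1 and mt-Nd2, complex I core subunits, had -0.11 (SE 0.19) and 0.06 (SE 0.20).

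mt-Nd5, the largest mitochondrial-encoded complex I subunit, differed more within groups than between them. Its values were 189540.3, 279064, 300771 and 408172 in Sham, 407575, 408879, 413304 and 192412 in KPC, and 406234, 219205, 341562 and 318154 in KPC_UA libraries. Sham 1, KPC 4 and KPC_UA 2 were the lowest of their groups, the libraries with the low long-transcript measure. mt-Nd5 (chrM:11742-13565) overlaps mt-Nd6 (chrM:13552-14070) on the opposite strand over a short stretch at its end. The use of strand in counting is not given, so that reads over this stretch may be mixed. mt-Atp8, a small complex V subunit that overlaps mt-Atp6, was also lowest in these 3 libraries, with 78.6, 101 and 116.

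Nuclear-encoded complex I members had a median log2 fold change of -0.22 in KPC against Sham, with 33 of 38 negative and none past the test. Ndufb10, an accessory subunit of the membrane arm, had normalised values of 8797, 5216, 6004 and 6319 in Sham and 2811, 4955, 4732 and 5137 in KPC libraries. All KPC values lay below all Sham values, and the log2 fold change was -0.59 (SE 0.24, limma adjusted p = 0.175). In KPC_UA libraries Ndufb10 was 6452, 8256, 4866 and 6324, which overlapped with both. Ndufc2, another membrane-arm accessory subunit, had the lowest log2 fold change of all members, -0.63 (SE 0.27, limma adjusted p = 0.193). Its values were 3430.2, 2174, 2458 and 2497 in Sham, 964, 1872, 2079.5 and 2153 in KPC, and 2603, 3292, 1886 and 2663 in KPC_UA libraries. KPC 1 stood far below the other 3 KPC libraries, which lay just under the lowest Sham library.

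Of the core complex I subunits that carry electrons, Ndufv1 and Ndufs1 lay closer to 0. Ndufv1, which binds NADH, was 10868 ± 2376 in Sham and 11085 ± 1069.9 in KPC libraries (normalised value, SD, n = 4), with a log2 fold change of 0.04 (SE 0.19). Ndufs1, with iron-sulphur clusters, had -0.16 (SE 0.23). Others of this kind lay lower, with -0.35 (SE 0.23) for Ndufs7, -0.29 (SE 0.21) for Ndufv2 and -0.26 (SE 0.25) for Ndufs8. At the upper end of nuclear complex I was Ndufa3, an accessory subunit, at 0.18 (SE 0.29). None of these passed the test.

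Complex II has 4 members, and none passed the test. Sdhd, a membrane anchor, had values of 7067, 4283, 5011 and 5493 in Sham, 2679, 4725, 4636 and 3847 in KPC, and 5955, 6164, 4102 and 5699.8 in KPC_UA libraries. The KPC and Sham ranges overlapped, and the log2 fold change was -0.47 (SE 0.23, limma adjusted p = 0.229). Sdhc, the other anchor, had -0.25 (SE 0.19) and Sdhb, the iron-sulphur subunit, -0.15 (SE 0.26). Sdha lay on the other side of 0, at 0.11 (SE 0.16), with values from 28775 to 35724 in Sham and from 28925 to 38499 in KPC libraries.

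All 8 nuclear complex III members had negative log2 fold changes in KPC against Sham, within a narrow range. They ran from -0.19 (SE 0.18) for Uqcrb, a subunit near the quinone site, to -0.01 (SE 0.19) for Uqcrfs1, the Rieske iron-sulphur protein. Uqcrc1, a core protein that faces the matrix, had -0.12 (SE 0.24). Each lay within its standard error of 0 or little beyond it, and none passed the test.

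In complex IV, 9 of 15 nuclear members were negative, with a median of -0.08. Cox8a, the widely expressed isoform of subunit VIII, was the highest nuclear member of any complex, at 0.55 (SE 0.29, limma adjusted p = 0.258). Its values were 589, 338, 343 and 398 in Sham, 709, 407, 468 and 926 in KPC, and 441, 537, 399.6 and 453 in KPC_UA libraries. KPC 1 and KPC 4 were above all Sham libraries, and KPC 2 and KPC 3 were not. Cox8b, its striated muscle counterpart, had -0.16 (SE 0.25), and Cox6a1, the widely expressed isoform of subunit VIa, was the lowest of complex IV at -0.38 (SE 0.25). Cox7a2l, a relative of subunit VIIa that takes part in supercomplex assembly, had 0.25 (SE 0.17). None of the 18 complex IV members passed the test.

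In complex V, 12 of 16 nuclear members were negative, with a median of -0.14. Atp5b had values of 93296, 64351, 73118 and 82462 in Sham and 71171, 80469.8, 91117 and 83129.8 in KPC libraries, and a log2 fold change of 0.06 (SE 0.17). Its partner Atp5a1 had 71695 ± 10284 in Sham and 58808 ± 11995 in KPC libraries (SD, n = 4), with a log2 fold change of -0.30 (SE 0.19, limma adjusted p = 0.340). Atp5j, a peripheral stalk subunit, was lowest with -0.42 (SE 0.24), and Atp5s was highest with 0.28 (SE 0.20). None of the 16 passed the test.

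Over all 81 nuclear members the median log2 fold change in KPC against Sham was -0.15, with 16 positive, against 0.01 over all genes with 50.5% positive. This median moved with single libraries. It was -0.01 without Sham 1 and 0.00 without KPC 1, while it was -0.29 without KPC 4 and -0.23 without Sham 2. Without Sham 1 and KPC 4 together it was -0.16, and with the length trend removed it was -0.14. The mitochondrial median was higher than the nuclear one by 0.24, a difference that was described and not tested.

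**Figure D4:**
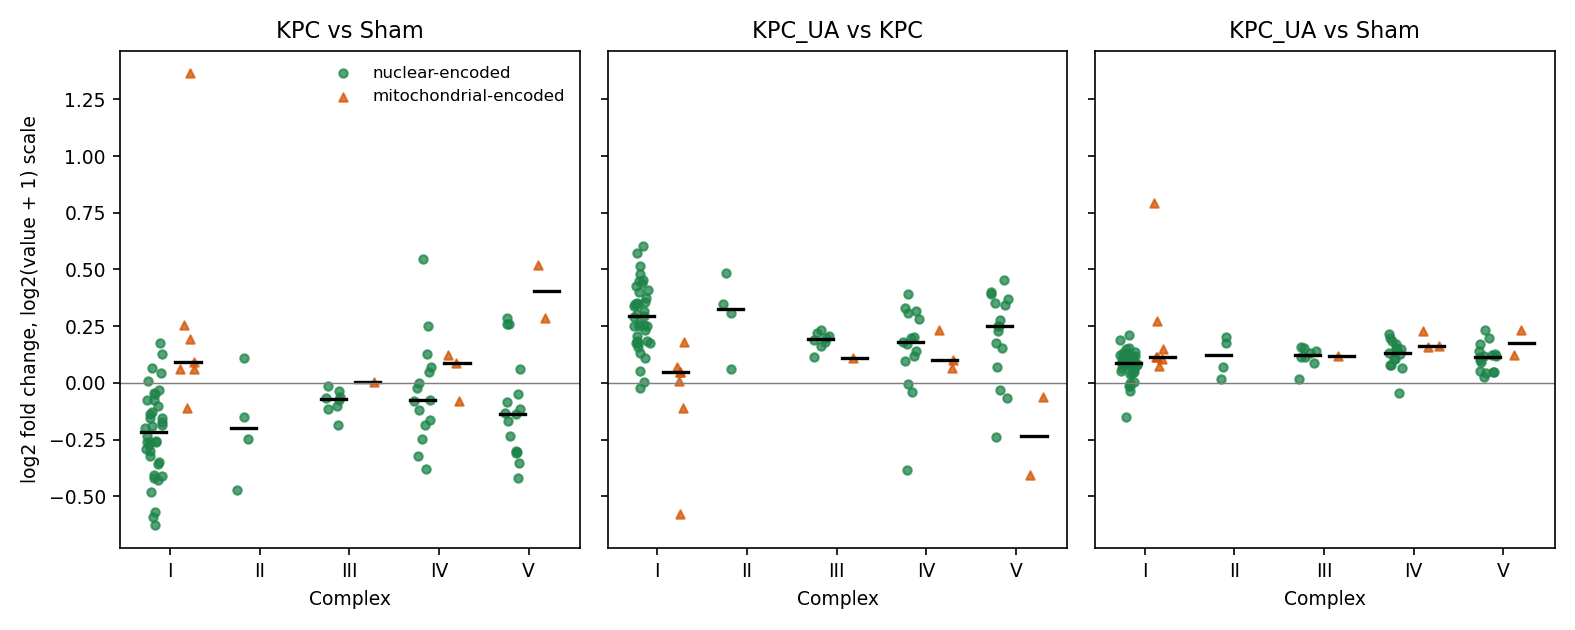
log2 fold change of each of the 94 members by complex in the 3 comparisons, with circles for nuclear-encoded and triangles for mitochondrial-encoded members and black lines for the medians. Nuclear members lie mostly below 0 in KPC against Sham (65 of 81) and mostly above 0 in the comparisons of KPC_UA with KPC (74 of 81) and with Sham (75 of 81), and mt-Nd3 stands apart at 1.37 in the first.

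The comparison of KPC_UA with KPC asks what ursolic acid in the chow changed in tumour-bearing mice. It shares its KPC libraries with the comparison above, so the KPC libraries enter both with opposite signs. No member passed the test by limma, edgeR or DESeq2, and 1 member had an unadjusted p under 0.05. Over all genes 0% passed by limma or edgeR, 12.7% had an unadjusted p under 0.05 and 0.738% passed by DESeq2. Groups overlapped for all 94 members, against 7.92% of all genes without overlap. Standard errors had a median of 0.24.

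Of the 81 nuclear members 74 had positive log2 fold changes in KPC_UA against KPC, with a median of 0.25, against -0.00 over all genes with 49.7% positive. The medians by complex were 0.29 for nuclear complex I (37 of 38 positive), 0.33 for complex II (4 of 4), 0.19 for complex III (8 of 8), 0.18 for complex IV (12 of 15) and 0.25 for complex V (13 of 16). Ndufc2 was highest at 0.61 (SE 0.28, limma adjusted p = 0.382), and Ndufb10, the one member with an unadjusted p under 0.05, had 0.57 (SE 0.24, limma adjusted p = 0.382). Sdhd had 0.48 (SE 0.23), Atp5j 0.46 (SE 0.25) and Cox7a1, the striated muscle isoform of subunit VIIa, 0.39 (SE 0.25). Cox8a was lowest at -0.38 (SE 0.26) and Atp5s followed at -0.24. Leaving out KPC 1 gave a nuclear median of 0.09 and leaving out KPC_UA 2 gave 0.11, while leaving out KPC 4 gave 0.40.

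The 13 mitochondrial members had a median of 0.05 in KPC_UA against KPC, with 9 positive. mt-Nd3 had a log2 fold change of -0.58 (SE 0.30, limma adjusted p = 0.389) and was the lowest member. mt-Atp8 had -0.41 (SE 0.37) and mt-Nd1 0.18 (SE 0.18). For the 7 mitochondrial members with many reads the median was 0.05, with 6 positive.

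KPC_UA against Sham sets tumour-bearing, treated mice beside tumour-free mice and shares libraries with both comparisons above. No member passed the test by limma, edgeR or DESeq2, and 1, mt-Nd3, had an unadjusted p under 0.05, against 7.94% of all genes. Over all genes 0% passed by limma or edgeR and 0.692% by DESeq2. None of the 94 was without overlap, against 4.10% of all genes. mt-Nd3 had a log2 fold change of 0.79 (SE 0.28, limma adjusted p = 0.484). Nuclear members had a median of 0.10, with 75 of 81 positive, and mitochondrial members a median of 0.15, with 13 of 13 positive, against 0.01 over all genes with 52.1% positive. Without KPC_UA 2 the nuclear median was -0.03, and without Sham 1 it was 0.23. Nuclear members ran from -0.15 (SE 0.26) for Ndufa4l2 to 0.23 (SE 0.11) for Atp5g2, and Ndufc2 and Ndufb10 both had -0.02. These last 2 and Ndufa4l2, at -0.57, had the lowest log2 fold changes of the nuclear members in KPC against Sham.

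Isoform shares were taken per kilobase within each family and are descriptions with no test. The muscle isoforms were the larger part of their families. In Sham libraries Cox6a2 took 95.6% ± 0.492 of subunit VIa, Cox8b 96.0% ± 0.543 of subunit VIII and Cox7a1 80.9% ± 0.988 of the pair Cox7a1 and Cox7a2 (SD, n = 4). Cox4i1 took 99.9% of subunit IV. The minor isoform Cox6a1 took 3.78 to 4.82% in Sham, 2.50 to 3.51% in KPC and 3.55 to 5.11% in KPC_UA libraries, so the KPC range lay below both others. Ndufa4 is placed with complex I by its name and is also known as a complex IV subunit. Its relative Ndufa4l2, known to be induced by hypoxia, took 0.902 to 1.08% of their sum in Sham, 0.533 to 0.729% in KPC and 0.623 to 1.14% in KPC_UA libraries, and the Sham and KPC ranges did not overlap. The levels of Cox6a1, Ndufa4 and Ndufa4l2 overlapped between Sham and KPC libraries, and none passed the test. Ndufa4l2 had few reads, 42 to 160 in KPC libraries. How often shares of other genes lack overlap was not counted, and for levels 19.1% of all genes did. Cox8a took 3.5004 to 4.72% in Sham and 4.44 to 11.4% in KPC libraries, with overlap, and the highest share was that of KPC 1. Per kilobase, the 3 genes for the identical subunit c of complex V were led by Atp5g3, with 71.8% ± 3.33 in Sham and 65.9% ± 5.43 in KPC libraries. Atp5g2 took 16.3% ± 3.65 and 22.8% ± 5.28. This order depends on the transcript lengths used, 4715 bases for Atp5g1 against 723 for Atp5g3. Before division by length, Atp5g1 was above Atp5g3 in every Sham library (19545, 11192, 12878 and 14452 against 18115, 9841, 12147 and 13546). Values of Atp5g2 are uncertain because Gm10175 matches 88.2% of its transcript without a difference. Of the 81 nuclear members, 6 had such a copy over at least 50% of the transcript, and these were Atp5g2, Atp5h, Atp5l, Cox7c, Ndufs3 and Uqcrb.

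**Figure D5:**
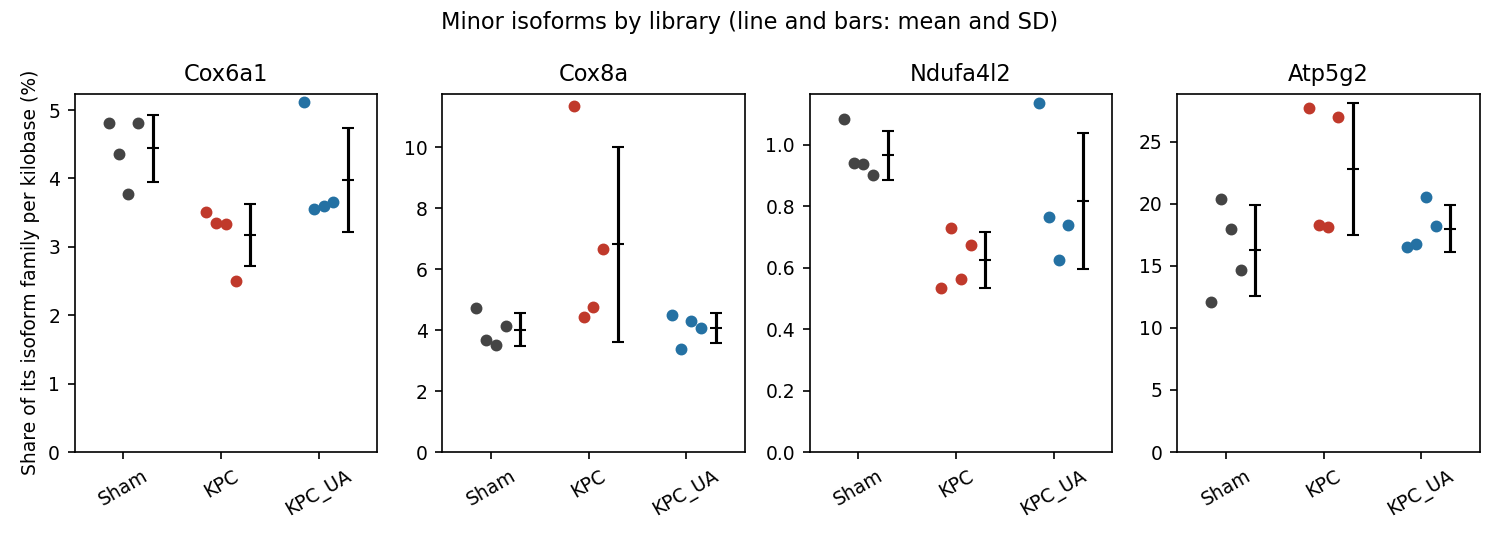
Share of Cox6a1, Cox8a, Ndufa4l2 and Atp5g2 in their isoform families per kilobase (%, axes from 0), with each point a library and the line and bars the mean and SD of 4 libraries. The KPC points lie below all Sham points for Cox6a1 (2.50 to 3.51% against 3.78 to 4.82%) and Ndufa4l2, and overlap with them for Cox8a and Atp5g2. The shares were not tested, and the levels of Cox6a1 and Ndufa4l2 overlapped between these groups.

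Other genes of the pathway gave no calls by limma in any comparison. Of 53 tested assembly factors 43 had negative log2 fold changes in KPC against Sham, with a median of -0.27 and none past the test, and 10 were positive, against 50.5% of all genes. An unadjusted p under 0.05 was reached by 7 of the 53, a smaller share than the 24.5% of all genes. In KPC_UA against KPC their median was 0.28, with 43 positive, and in KPC_UA against Sham -0.01, with 26 positive. Among the assembly factors with the smallest p in KPC against Sham, Cox10, which takes part in making the haem of complex IV, had -0.62 (SE 0.20, limma adjusted p = 0.122), and Bcs1l, which inserts the Rieske protein into complex III, had -0.95 (SE 0.32, limma adjusted p = 0.128). The 13 carriers and electron-input genes had a median of -0.12, and Cycs, cytochrome c, had -0.62 (SE 0.23). The 13 coenzyme Q synthesis genes had a median of -0.07, the 12 genes of the TCA cycle 0.03 and the 79 mitochondrial ribosomal protein genes -0.10, each with none past the test.

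Genes for the upkeep and expression of mitochondrial DNA, 30 tested, had a median of 0.03 in KPC against Sham, with 17 positive. Polg, the mitochondrial DNA polymerase, had 0.50 (SE 0.18, limma adjusted p = 0.141), and Tfam, which packages the mitochondrial genome, -0.25 (SE 0.20). Of the 7 regulators of nuclear oxidative phosphorylation genes none passed the test. Their median in KPC against Sham was 0.04, with 4 positive (Nrf1, Gabpa, Gabpb1 and Yy1) and 3 negative. Ppargc1b, a coactivator, had -1.57 (SE 0.48, limma adjusted p = 0.114) and Esrra, an estrogen-related receptor, -0.88 (SE 0.33, limma adjusted p = 0.158), and both were without overlap between Sham and KPC libraries, as were 19.1% of all genes. Ppargc1a, the related coactivator, had -0.24 (SE 0.20). In KPC_UA against KPC, Ppargc1b had 1.15 (SE 0.50) and Esrra 0.88 (SE 0.34), both with a limma adjusted p of 0.382. The 7 regulators had a median of -0.36 in that comparison, with 3 positive and 4 negative.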

How the data were processed

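The authors deposited a table for each of the 3 pairs of groups. Per the file headers a table holds a normalised signal for every gene in every library and the authors' log2 fold change, p-value and adjusted p. The submitters' processing notes name bcl2fastq 2.17, featureCounts, Subread 1.5.2 and GRCm38. The aligner, annotation, strand setting and differential test: not given in the sources used here. In every column the deposited signal stepped by a fixed amount, and division by that step returned whole reads for 100% of values within 0.01 reads. Libraries held 22.3 to 32.0 M reads, and the lowest sum of a listed gene over 8 libraries was 81.

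Each comparison was tested in its own table by limma 3.58.1 (R 4.3.3), two-sided, with trended and robust variances, on log2(value + 1). Genes needed a mean of at least 10, and the Benjamini-Hochberg adjusted p over all genes had to be under 0.05. Changes of low genes are understated on this scale. The tests recovered planted changes in simulated data, but these were larger than the log2 fold change of any member. The simulated libraries also had no variation shared between genes. Recovery of changes as small as those of the members was therefore not examined. Levels over 12 libraries used median-of-ratios scaling of the recovered reads for the 13244 genes in all 3 tables. Lengths are those of principal transcripts in GENCODE M21. Copies were sought with BLAST 2.17.0 among its transcripts (at least 98% identity over at least 50%). Named members are the mitochondrial ones, isoform sets, Sdh genes, core subunits, called members, and the extremes of each complex with a mean of at least 50. Ndufb10, Ndufs7, Ndufv2, Ndufs8 and genes that are no members were named after their values were seen. Members and lists were chosen with earlier results of these data known. Alternatives were pseudocounts of 0.5 and 5, other filters and scalings, limma without trend, edgeR 4.0.16, DESeq2 1.42.0, the authors' values, a replicate block and each library left out. Same-numbered samples did not deviate together in every pair, so no pairing was used. No sample was left out, and values of 1 core subunit are not reported here.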

Additional observations from a re-analysis of the deposited data

Results flagged for a closer look

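In 165 groups of 4 libraries, those of the named members and of the medians by genome and complex, 10 had one library far from the other 3, and chance flags about 1 in 20 groups. KPC 4 stood above the other KPC libraries for Atp5g2 (5828), Cox6a1 (537), Cox6a2 (24967), Ndufa10 (7608) and Uqcr10 (6467), and below them for mt-Nd5 (192412), all in normalised values. Sham 1 stood above the other Sham libraries for Uqcr10 (5412) and Uqcr11 (4725). KPC 1 stood below the other KPC libraries for Atp5j (4596), and KPC_UA 3 below the other KPC_UA libraries for mt-Nd2 (231566). KPC 4 and Sham 1 are libraries with the low level of long transcripts, and the part of that measure in these values was not tested.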

How the results depend on the processing

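The count of members past the test in KPC against Sham, 1, was 0 with a mean of at least 50, with limma without trend and robust estimation, and, added after seeing the data, without the library of each group with the lowest long-transcript measure. It ranged from 0 to 1 with one library left out. In KPC_UA against Sham the mitochondrial minus nuclear median was 0.05 and ranged from -0.12 to 0.23 with one library left out. The cause of these changes was not tested. With quantile normalisation the nuclear median was -0.30 in KPC against Sham and 0.37 in KPC_UA against KPC. With the replicate number as a block, 1 member passed in KPC against Sham, 0 in the other comparisons, and 66 of all genes in place of 160; same-numbered samples correlated between -0.26 and 0.13, so the numbers give no pairing. In the named members the only called log2 fold change, that of mt-Nd3, kept its sign under every alternative. The signs of uncalled members were less stable. Between Sham and KPC libraries, 24 of the 47 named members changed sign under some alternative. The 84 sign changes there included 33 under alternatives other than leaving out a single library. For ursolic acid beside standard chow in tumour-bearing mice, 21 of 47 changed sign, and between KPC_UA and Sham libraries 27 of 47 did. Members with few reads, such as mt-Atp8 and Cox4i2, had the widest errors.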

Other observations

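The mitochondrial tRNA genes lie between the mitochondrial members and were looked at after their values were seen. All 19 tested had positive log2 fold changes in KPC against Sham, with a median of 0.41, and 2 of the 19 passed the test by limma, against 1.18% of all genes. mt-Tf, the tRNA for phenylalanine at the start of the heavy-strand transcript (chrM:1-68, GRCm38), had normalised values of 143, 48.9, 71.3 and 119 in Sham, 557, 332, 553 and 491 in KPC, and 172, 304, 216 and 351 in KPC_UA libraries. Every KPC library lay above every Sham library, and the log2 fold change was 2.42 (SE 0.34, limma adjusted p = 0.0255). mt-Tv, the tRNA for valine between the ribosomal RNA genes mt-Rnr1 and mt-Rnr2 (chrM:1025-1093), had 408, 317, 448 and 715 in Sham, 1623, 1129, 1785 and 920.1 in KPC, and 723, 906, 828 and 1161 in KPC_UA libraries. Its log2 fold change was 1.54 (SE 0.29, limma adjusted p = 0.0428). In KPC_UA against KPC the log2 fold changes were -0.91 (SE 0.27) for mt-Tf and -0.56 (SE 0.24) for mt-Tv, both with a limma adjusted p of 0.382. Most of the other tRNA genes were positive in that comparison. In KPC_UA against Sham all 19 were again positive, and none passed the test. There mt-Tf had 1.51 (SE 0.32, limma adjusted p = 0.230) and mt-Tv 0.99 (SE 0.22, limma adjusted p = 0.233).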
